A study of Rattus norvegicus with 4 samples.

Results

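The probe sets for potassium channel genes (symbols beginning with Kcn) and for sodium channel genes (symbols beginning with Scn) were taken from a rat oligonucleotide array. A probe set was a member when the probe table named 1 gene for it and the symbol began with either prefix. This gave 95 probe sets of 62 genes, 7.52% of the 1263 probe sets other than controls: 76 probe sets of 49 Kcn genes and 19 probe sets of 13 Scn genes. The samples were total RNA of rat tissue labelled brain and adrenal medulla, on 4 arrays. They were an undigested and a digested sample at day 1 and an undigested and a digested sample at day 7 of a time course, 1 array each. What was digested, what the days count from, and the strain, age and number of animals are not stated in the sources used here. Because no group was repeated there is no replicate check, so differences are given as sizes without a test, and a limma fit that pools all 4 arrays stands beside them.

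Potassium channels let potassium leave the cell, which holds the membrane near rest and ends the action potential. Voltage-gated sodium channels open first and carry its upstroke. The potassium channel families differ in what opens them: voltage, internal calcium, the energy state of the cell, G proteins, or nothing beyond a steady leak. Chromaffin cells of the adrenal medulla are related to sympathetic neurons, fire action potentials and are known to use calcium-activated potassium channels to shape them.

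Signals were scaled so that the 4 arrays had the same median, and anything under a signal of 51.8 (the 20th percentile) was set to that floor before log2. Unless said otherwise, counts of differences use only the 632 probe sets whose mean log2 signal reached the median of all, a signal of 229, which are called the analysed probe sets. Of the 95 channel probe sets, 28 (24 genes) were analysed. Markers fitted the labelled tissue in part. Of 10 listed chromaffin cell genes 4 were on the array, and all 4 (Th, Dbh, Ddc and Penk) had a probe set at least 2 times the array median on all arrays. The same held for 9 of the 10 neuronal genes on the array, 1 of 4 astrocyte genes and 2 of 4 oligodendrocyte or Schwann cell genes. None of the 7 listed muscle genes was named in the probe table. Of the immune and the fibroblast or vessel lists only Il1b and Vim were on the array, neither analysed, and Vim was under the floor on every array. Summed signals of the neuronal list reached 313356 (undigested) and 343069 (digested) at day 1 and 237346 and 209672 at day 7. That of the astrocyte list was 11581 and 11985 at day 1 and 5707 and 6867 at day 7, and that of the chromaffin list 280219, 303361, 385539 and 251809 on the arrays in the same order. These sums rest mostly on the brightest genes, Snap25, Glul and Th, and the genes of the neuronal and chromaffin lists did not all move alike. From day 1 to day 7 undigested, Snap25 (AB003991_g_at) was lower by a log2 of 0.77, while Eno2 was higher by 0.64. In the digested samples Th was lower by 0.51, while the median day difference of the analysed chromaffin probe sets was 0.27. The part of the shifts in these sums in the differences below was not tested, and fewer cells of a type and less RNA per cell cannot be told apart here. The arrays of day 7 also stood apart in their controls. The median log2 signal of the 9 hybridisation control probe sets on the digested day 7 array against the other arrays was -1.35, and the 3′ to 5′ ratio of beta-actin was 2.66 on the undigested day 7 array against 1.35 to 1.48 on the others. Their part was not tested either.

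Most channel probe sets were dim. On the undigested day 1 array 67 of the 95 read below the array median, and on the other arrays 67, 69 and 65 did. The median channel probe set stood at 0.453 to 0.571 times the array median. On all 4 arrays, 51 channel probe sets (53.7%) were below the median, against 39.9% of all probe sets, and 17 (17.9%) were at or above it, where 42% of all were. Being well above the median, taken as at least 2 times it on every array, was met by 8 probe sets of 7 genes (8.42%), beside 34% of all probe sets. Those genes were Kcnh1, Kcnh2 with both of its probe sets, Kcnh3, Kcnc4, Kcnk3, Kcnn1 and Kcnn3. The lowest of the 8 by its dimmest array was Kcnn1 at 2.05 times the median, and the next probe set below the limit was the brighter one of Kcnq3 at 1.40. At least 1 array was at the floor for 53 channel probe sets (55.8%; 34.9% of all). On all 4 arrays 6 of the 95 were at the floor, a share near that of all probe sets (92 of 1263). Because probe sets differ in how strongly they bind their target, these multiples say where a probe set stands on its array and do not rank the genes by abundance. Without detection calls, a signal at the floor could not be told from absence of the transcript.

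**Figure D1:**
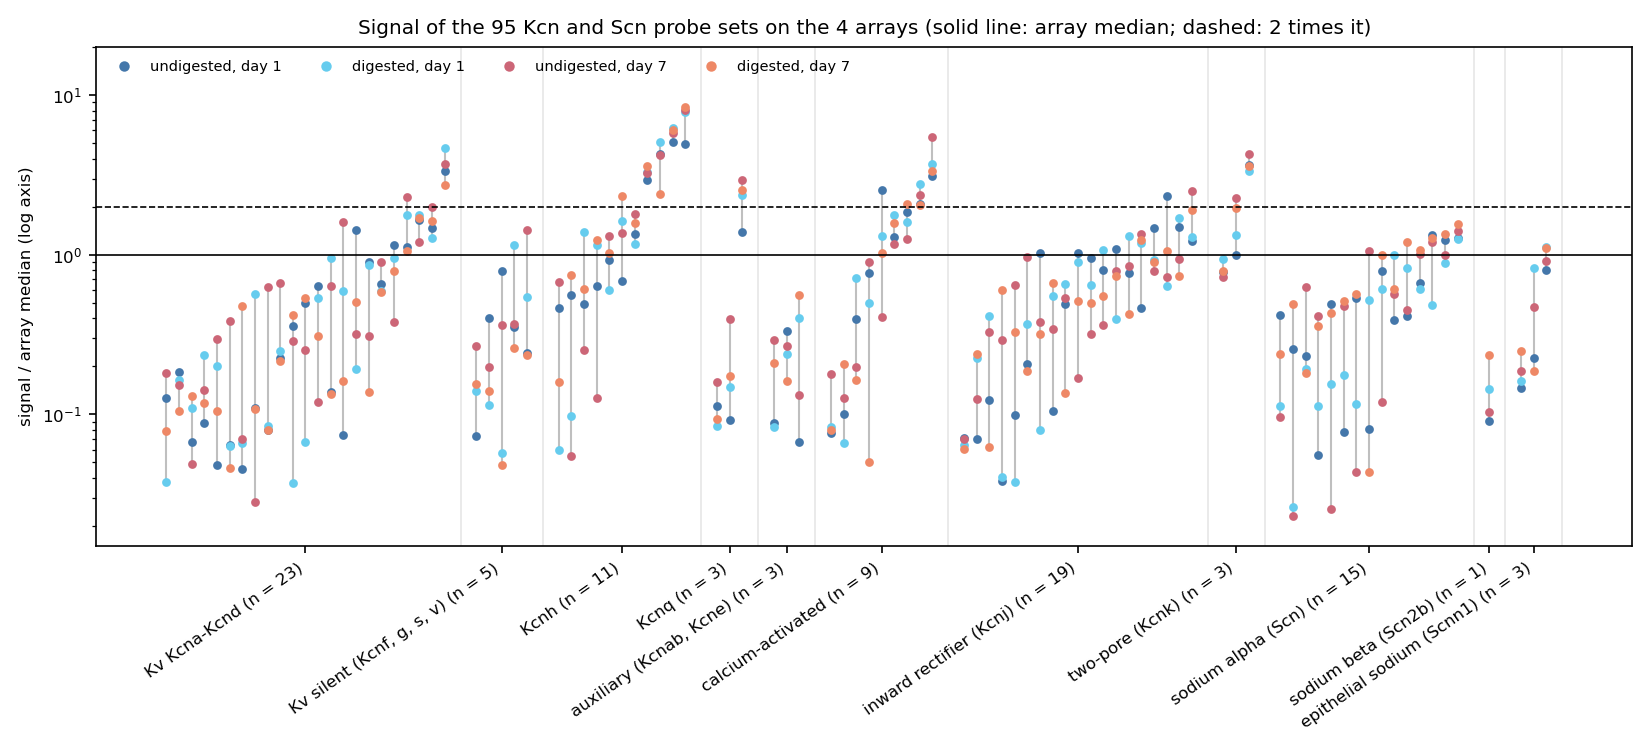
Signal of each of the 95 channel probe sets as a multiple of the median of its array (log axis), by channel class, with 1 point per array and a grey line joining the lowest and highest array. The dashed line marks 2 times the median, which 8 probe sets exceed on all arrays, 4 of them from the Kcnh family, while the sodium alpha subunits reach at most 1.55 times.

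The upstream sequences of the genes at the ends of this range are shown so that both can be read side by side. Windows of 250 bases before the annotated start were taken from the RefSeq promoter table (build GRCr8), which held 47 of the 62 channel genes, some with more than 1 start. Entries existed for 3 of the 7 well-above genes (Kcnc4, Kcnh1 and Kcnn3) and for 3 genes whose only probe set was at the floor on all arrays, Kcna3, Kcnj9 and Kcnt1, of which the pair with a single start is printed. Capitals mark GGGCGG or its reverse complement CCGCCC, the GC box bound by Sp-family factors.
Kcnc4, chr2:197788434-197788683, minus strand: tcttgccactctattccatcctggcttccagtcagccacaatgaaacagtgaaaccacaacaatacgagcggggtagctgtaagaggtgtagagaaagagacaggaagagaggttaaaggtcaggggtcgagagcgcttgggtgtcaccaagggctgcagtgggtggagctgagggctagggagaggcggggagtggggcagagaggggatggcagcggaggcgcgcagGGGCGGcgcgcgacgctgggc
Kcnh1, chr13:106252966-106253215, plus strand: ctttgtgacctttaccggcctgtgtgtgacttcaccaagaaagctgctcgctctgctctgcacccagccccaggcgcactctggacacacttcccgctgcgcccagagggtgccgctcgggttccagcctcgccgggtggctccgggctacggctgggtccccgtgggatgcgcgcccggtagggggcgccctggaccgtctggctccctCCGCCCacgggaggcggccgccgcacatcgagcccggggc
Kcnn3, chr2:177234090-177234339, plus strand: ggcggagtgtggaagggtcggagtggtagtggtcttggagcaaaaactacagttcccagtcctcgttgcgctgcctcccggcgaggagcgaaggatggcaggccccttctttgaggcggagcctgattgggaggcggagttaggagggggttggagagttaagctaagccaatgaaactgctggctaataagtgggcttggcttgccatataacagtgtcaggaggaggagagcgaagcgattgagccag
Kcna3, chr2:197320074-197320323, plus strand: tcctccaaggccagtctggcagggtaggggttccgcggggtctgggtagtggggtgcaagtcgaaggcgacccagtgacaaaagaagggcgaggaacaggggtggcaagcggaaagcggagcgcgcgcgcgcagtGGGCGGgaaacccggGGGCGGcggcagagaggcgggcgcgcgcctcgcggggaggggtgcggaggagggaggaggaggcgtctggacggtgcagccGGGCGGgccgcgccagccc
Kcnj9, chr13:87320294-87320543, minus strand: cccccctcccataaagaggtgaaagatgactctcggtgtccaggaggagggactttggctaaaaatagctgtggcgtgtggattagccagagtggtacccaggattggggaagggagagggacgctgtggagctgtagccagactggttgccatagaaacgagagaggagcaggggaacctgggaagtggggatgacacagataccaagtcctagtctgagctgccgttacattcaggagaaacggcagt

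The bright and the dim genes shown did not separate by these letters. The window of Kcna3, at the floor throughout, held 29 CG dinucleotides and 3 GC boxes, while that of Kcnn3, well above the median throughout, held 11 and 0. Kcnh1 had 24 CG dinucleotides and 1 GC box, Kcnc4 13 and 1, and Kcnj9 6 and 0. Over the 51 windows of channel genes the median was 11 CG dinucleotides, against 5 over all 33469 windows in the table, and 49% held a GC box, against 30.5% of all. Windows of genes with an analysed probe set held one in 41.2% (17 windows) and those of the other channel genes in 52.9% (34 windows). The TATA box letters TATAAA, on either strand, were in 3.92% of the channel windows and 12.9% of all, and the cyclic AMP response element TGACGTCA was in 0 and 1.59%. These are counts of letters in a fixed window and do not show a bound site.

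The Kcnh family, voltage-gated channels related to the ether-a-go-go channel of the fly, was by count the best represented among the bright members. Of its 11 probe sets, 4 were well above the median, a share near the 34% of all probe sets. Analysed were 7 of the 11, covering 6 of the 8 genes. Kcnh2, whose channel repolarises the heart and also damps firing in neurons and endocrine cells, was the most even of the analysed genes. Its probe set Z96106_at had scaled signals of 1344, 1642, 1517 and 1577 on the undigested day 1, digested day 1, undigested day 7 and digested day 7 arrays, the order used from here on. The other, U75210_s_at, read 774, 871, 858 and 942. The highest array was 1.22 times the lowest for both, and no comparison passed a log2 difference of 0.29 in size. The small undigested day differences, 0.15 and 0.17, were -0.08 and -0.06 in the values as deposited.

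Kcnh3, a slow-gating member of forebrain neurons, read 1294, 2055, 2120 and 2214 with AJ007627_at, lowest on the undigested day 1 array and within 1.08-fold on the others. Its second probe set, AF073892_s_at, was much dimmer and followed another pattern, with 129, 363, 66.4 and 161, higher in the digested sample of each day by 2.81-fold and 2.43-fold. Kcnh1, the ether-a-go-go channel itself, read 1125, 1327, 1111 and 631. No other of the 8 well-above probe sets passed 2-fold in a comparison, and this one did so once, being 2.10-fold lower at day 7 than at day 1 in the digested samples (log2 -1.07).

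Below that level, Kcnh4, a close relative of Kcnh3, read 179, 430, 359 and 611. Both digested samples were above the undigested sample of their day and both day 7 samples above the day 1 sample of their state. Its digestion differences were 2.40-fold at day 1 and 1.70-fold at day 7, and its day differences 2.01-fold undigested and 1.42-fold digested. Kcnh6 (355, 307, 475 and 415) and Kcnh7 (244, 158, 346 and 268), which code for relatives of the Kcnh2 channel, read higher on each day 7 array than on the day 1 array of the same state, by log2 differences of 0.42 to 0.77. Kcnh5 and both probe sets of Kcnh8 were not analysed, each with at least 1 array at the floor, and the signals of Kcnh5 ran from 14.4 to 197.

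Of the classical voltage-gated subfamilies Kcna to Kcnd, which include the delayed rectifiers and the fast inactivating A-type channels, 12 genes were read by 23 probe sets. Only 4 probe sets were analysed, 16 were below the array median on all arrays and 16 touched the floor. Kcnc4, an A-type member of the family that repolarises fast-firing neurons, was well above the median with 883, 1216, 978 and 718. Its digestion difference was 0.46 at day 1 and -0.45 at day 7 (log2). Kcnc1, a fast delayed rectifier of the same subfamily, read 388, 335, 525 and 427, higher at day 7 in both states, by 1.35-fold and 1.27-fold. Kcna4, an A-type channel, read 434, 463, 315 and 449 with X16002cds_s_at, lowest on the undigested day 7 array. On its dimmer probe set M32867_at, with 172, 156, 237 and 154, that array was the highest.

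Kcna5, a delayed rectifier known from heart and vessels, read 294, 469, 608 and 279, and the sign of its digestion difference changed with the day. The digested sample was 1.60-fold higher than the undigested at day 1 and 2.18-fold lower at day 7. Among the dim members, Kcna1, Kcna2, Kcna3, Kcna6, Kcnb2, Kcnc2, Kcnd2 and Kcnd3 had no analysed probe set. Signals of a single probe set swung widely there, as for M84203_s_at of Kcnc2 with 19.6, 156, 419 and 42.4, while the other 3 probe sets of Kcnc2 read at most 125 on any array.

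Kcnq3, a subunit of the M-channel that muscarinic receptors close, read 367, 619, 767 and 669 with AF091247_s_at, lowest on the undigested day 1 array. Its other probe set, AF087454_at, was at the floor on 3 arrays, and Kcnq1, a subunit of heart and epithelia, on all 4 (22.2 to 41.6). None of the 5 probe sets of silent subunits was analysed. These subunits, Kcnf1, Kcng1, Kcns1, Kcns3 and Kcnv1, form no channel alone and modify others. Nor were the 3 probe sets of the auxiliary subunits Kcnab1 and Kcne1, which stayed at or under 0.556 times the array median.

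Channels opened by internal calcium held 2 of the well-above genes. Both code for small-conductance channels, which carry the afterhyperpolarisation that follows a spike. Kcnn1 read 546, 730, 625 and 540, within 1.35-fold over the arrays. Kcnn3 read 818, 969, 1425 and 881, highest on the undigested day 7 array, 1.74-fold above the undigested day 1 sample. Kcnma1, the pore subunit of the large-conductance channel that voltage and calcium open together, was read by 4 probe sets. AF083341_s_at gave 484, 420, 329 and 544 and U93052_s_at 671, 346, 106 and 269. Both were lowest on the undigested day 7 array, but the day difference in the undigested samples was 1.47-fold lower by the first and 6.32-fold by the second. U55995_at did not follow, with 203, 132, 237 and 13.3, and U40603_at was at the floor on 3 arrays. Kcnmb1, an accessory subunit of the same channel, read 337, 464, 306 and 414 with AF020712_at, higher in the digested sample of each day by 1.37-fold and 1.35-fold. Kcnt1, a sodium-activated relative grouped here by its symbol, was at the floor on all arrays.

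**Figure D2:**
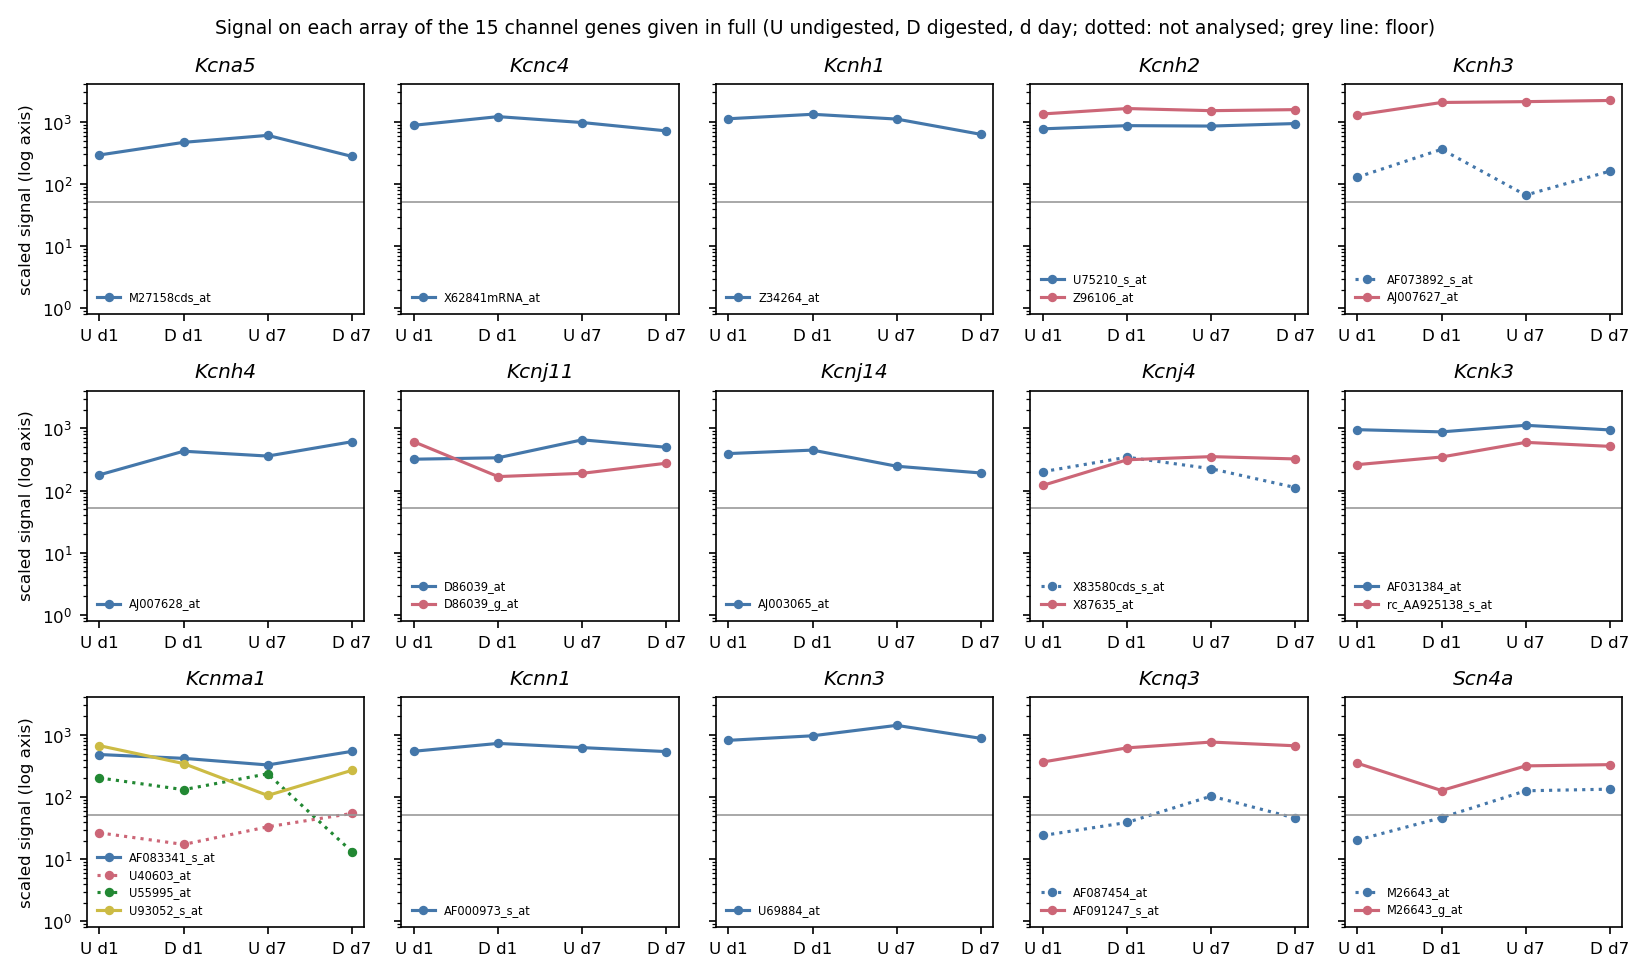
Scaled signal (log axis) on the 4 arrays for the 15 channel genes with a probe set well above the array median or an analysed one with a 2-fold difference and neither value at the floor. There is 1 line per probe set, dotted where the probe set was not analysed. Lines join the arrays only to guide the eye; the lines of Kcnh2 are flat within 1.22-fold, while the pairs of probe sets of Kcnj11 and of Kcnj4 cross.

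Inward rectifiers (Kcnj), which hold the resting potential and in some cells follow G proteins or ATP, made the largest group by genes, with 19 probe sets of 13 genes. None was well above the median, 5 probe sets of 4 genes were analysed and 10 touched the floor. Kcnj11, the pore of the ATP-sensitive channel, was read by a pair of probe sets designed on 1 sequence. D86039_at gave 320, 337, 656 and 498 and D86039_g_at 609, 168, 189 and 276. From day 1 to day 7 in the undigested samples the first was 2.05-fold higher and the second 3.22-fold lower, so the direction for Kcnj11 was not settled. Kcnj14, a strong rectifier described in motor neurons, read 394, 448, 246 and 192, with both day 7 arrays below both day 1 arrays. Its day difference was 1.60-fold lower undigested and 2.33-fold lower digested. Kcnj4, a strong rectifier of forebrain neurons, read 121, 313, 352 and 323 with X87635_at, low on the undigested day 1 array alone. X83580cds_s_at, its other probe set, read 202, 344, 225 and 112 and was lowest on the digested day 7 array. Kcnj16 read 388, 245, 207 and 236, highest on the undigested day 1 array. Of the G protein-gated subunits Kcnj3, Kcnj5, Kcnj6 and Kcnj9 none had an analysed probe set, and Kcnj9 ran from 15.9 to 18.8, under the floor on every array. Kcnj10, the main rectifier of glia, was not analysed either, and its brighter probe set ran from 49.4 to 254.

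The leak channels of the 2-pore family were read by 3 probe sets. Kcnk3, an acid-sensitive leak channel known from the adrenal gland, read 955, 880, 1123 and 946 with AF031384_at, within 1.28-fold over the arrays. Its probe set rc_AA925138_s_at read 262, 347, 597 and 515, with both day 7 arrays above both day 1 arrays, by 2.28-fold undigested and 1.48-fold digested. On AF031384_at the same day differences were only 1.18-fold and 1.08-fold higher, and in the values as deposited the first was 0.00 (log2). Kcnk1 stood just under the median on each array, at 0.721 to 0.936 times it, with 206, 246, 189 and 208.

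Sodium channel genes were dim throughout. Of 15 probe sets for 9 pore-forming alpha subunits none was well above the median, 1 was above it on all arrays, 3 were analysed and 9 touched the floor. The one above on all arrays was Scn2a, a main sodium channel of central neurons, with 334, 329, 372 and 409 and no difference beyond 1.24-fold. Scn8a, the main subunit at the node of Ranvier, read 325, 232, 261 and 352 with AF049239_s_at. L39018_at gave 174, 161, 265 and 279, while M27223_at gave 129, 40.7, 6.70 and 113. Scn4a, the subunit of skeletal muscle, read 350, 127, 317 and 333 with M26643_g_at, low on the digested day 1 array alone. M26643_at, designed on the same sequence, was at the floor on both day 1 arrays and read 126 and 134 at day 7. Scn9a, the subunit of sympathetic and sensory neurons that chromaffin cells also use, had probe sets that moved against each other. AF000368_at read 67.6, 6.91, 6.03 and 129 and U79568_s_at 21.3, 136, 276 and 11.4. The remaining alpha subunits (Scn1a, Scn3a, Scn7a, Scn10a and Scn11a) had no analysed probe set. Scn2b, the only beta subunit named on the array, was at the floor on 3 arrays. Of the epithelial channel genes, which take up sodium in kidney and airway, Scnn1a was analysed with 209, 294, 240 and 289, and Scnn1b and Scnn1g were not.

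Between the digested and undigested samples at day 1, Kcnj4 (X87635_at, 2.58-fold) and Kcnh4 (2.40-fold) read higher with digestion and Kcnj11 (D86039_g_at, 3.63-fold) and Scn4a (M26643_g_at, 2.75-fold) lower. These were 4 of the 28 analysed channel probe sets (14.3%), where 3.48% of all 632 analysed probe sets passed 2-fold. Both directions had 2 channels (7.14%), with 2.06% of all higher and 1.42% lower. The channels were dim among the analysed probe sets: 26 of the 28 lay among the 316 dimmer ones, of which 6.96% passed. The median log2 difference was 0.18 for the channels and 0.12 for all, and the median size without sign was 0.44 for the channels, 0.32 for the 316 dimmer ones and 0.20 for all. Other probe sets of the same genes did not pass 2-fold. That of Kcnj11 gave 0.08 (log2), that of Scn4a 0.00 with both values at the floor and that of Kcnj4 0.77, while Kcnh4 had no other. With all 95 channel probe sets and no filter, 27 (28.4%) passed, where 16.5% of all 1263 did. These shares are not matched for dimness. Of the 95 channel probe sets 67 were under the filter, and 55.8% touched the floor, against 34.9% of all. The same limit holds for the unfiltered shares of the other comparisons below.

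At day 7, a pair of channel probe sets passed 2-fold between the states, Kcnma1 (U93052_s_at, 2.53-fold higher with digestion, from a signal of 106 undigested) and Kcna5 (2.18-fold lower). This was 7.14% of the channels, against 11.4% of all analysed probe sets (6.96% higher and 4.43% lower) and 19% of the 316 dimmer ones. Without the filter 29 of 95 (30.5%) passed, and 21.6% of all. The median log2 difference was -0.03 for the channels and -0.05 for all, with 14 of the 28 on each side of 0. Kcnh1 (1.76-fold) and Kcnn3 (1.62-fold) read lower in the digested sample without reaching 2-fold. No analysed channel probe set passed 2-fold at both days. Of all 95, 3 dim ones did so in the same direction, beside 3.48% of all 1263 probe sets. They were AF073892_s_at of Kcnh3, higher with digestion, D10709exon_s_at of Kcne1, higher by 2.02-fold and 2.82-fold, and AF061957_at of Kcnh8, lower by 2.33-fold and 3.41-fold. For Kcne1 both undigested values and for Kcnh8 both digested values were at the floor. In opposite directions 9 of the 95 passed at both days, beside 2.93% of all, among them the single probe sets of Kcnb2 and Kcng1. Of these only Kcng1 had no array at the floor, and Kcnb2 was there on the undigested day 1 and digested day 7 arrays. In the values as deposited the difference of Kcna5 was -0.98 (log2) and only Kcnma1 remained past 2-fold.

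From day 1 to day 7 in the undigested samples 8 of the 28 (28.6%) passed 2-fold, 6 higher and 2 lower, beside 13.3% of all analysed probe sets (7.28% higher and 6.01% lower) and 17.1% of the 316 dimmer ones. Without the filter 37 of 95 (38.9%) passed, and 22.5% of all. Higher at day 7 were Kcnj4 (X87635_at, 2.90-fold), Kcnk3 (rc_AA925138_s_at, 2.28-fold), Kcnq3 (2.09-fold), Kcna5 (2.07-fold), Kcnj11 (D86039_at, 2.05-fold) and Kcnh4 (2.01-fold). Lower were Kcnma1 (U93052_s_at, 6.32-fold, to a signal of 106) and Kcnj11 again by its other probe set (3.22-fold). Apart from Kcnj4, the higher calls lay close to the limit and fell short of it in the values as deposited. Kcnk3 did so only there (log2 0.96), with 1.14 after quantile normalisation and 1.13 after cyclic loess. Kcnq3, Kcna5, Kcnj11 and Kcnh4 also fell short after cyclic loess. The median of all analysed probe sets was a log2 of 0.17 here and -0.07 in the values as deposited, where 1 channel was past 2-fold higher (Kcnj4) and 3 lower. Quantile normalisation gave 5 higher and 2 lower, and cyclic loess 2 and 2. Either way, the channels past 2-fold were thus 4 of 28 as deposited, 7 after quantile normalisation and 4 after cyclic loess. Of all analysed probe sets 12.5%, 12.8% and 12.2% passed in these settings. Channels had a median of 0.18, close to that of all, and the 8 well-above probe sets ran from -0.02 to 0.80. This comparison shares the undigested day 1 array with the digestion difference at day 1, and Kcnj4, Kcnh4 and Kcnj11 (D86039_g_at) were past 2-fold in both through their value on that array.

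In the digested samples, Scn4a (M26643_g_at) read 2.61-fold above its day 1 value at day 7, and Kcnj14 (2.33-fold) and Kcnh1 (2.10-fold) were lower. That was 3 of 28 (10.7%), beside 8.07% of all analysed probe sets (3.32% higher and 4.75% lower) and 12.7% of the 316 dimmer ones. Without the filter 27 of 95 (28.4%) passed, and 19.2% of all. The second probe set of Scn4a was also higher, from the floor to 134. The median log2 difference was 0.11 for the channels and 0.04 for all. No analysed channel probe set passed 2-fold between the days in both states. Of all 95, 3 dim ones did so in the same direction, beside 3.64% of all 1263 probe sets. They were M26643_at of Scn4a, higher at day 7 by 2.44-fold and 2.59-fold from values at the floor, rc_AI230211_s_at of Kcnd3, lower by 2.91-fold and 4.40-fold, and AB010963_s_at of Kcnmb1, lower by 2.01-fold and 3.60-fold, these with day 7 values at the floor for Kcnmb1 in both states and for Kcnd3 in the digested. In opposite directions 9 of the 95 passed in both states, beside 3.09% of all, and of these only Kcng1 had no array at the floor. Among the analysed, those nearest to it in the same direction were Kcnj14, lower by 1.60-fold and 2.33-fold, rc_AA925138_s_at of Kcnk3, higher by 2.28-fold and 1.48-fold, D86039_at of Kcnj11, higher by 2.05-fold and 1.48-fold, and Kcnh4, higher by 2.01-fold and 1.42-fold.

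**Figure D3:**
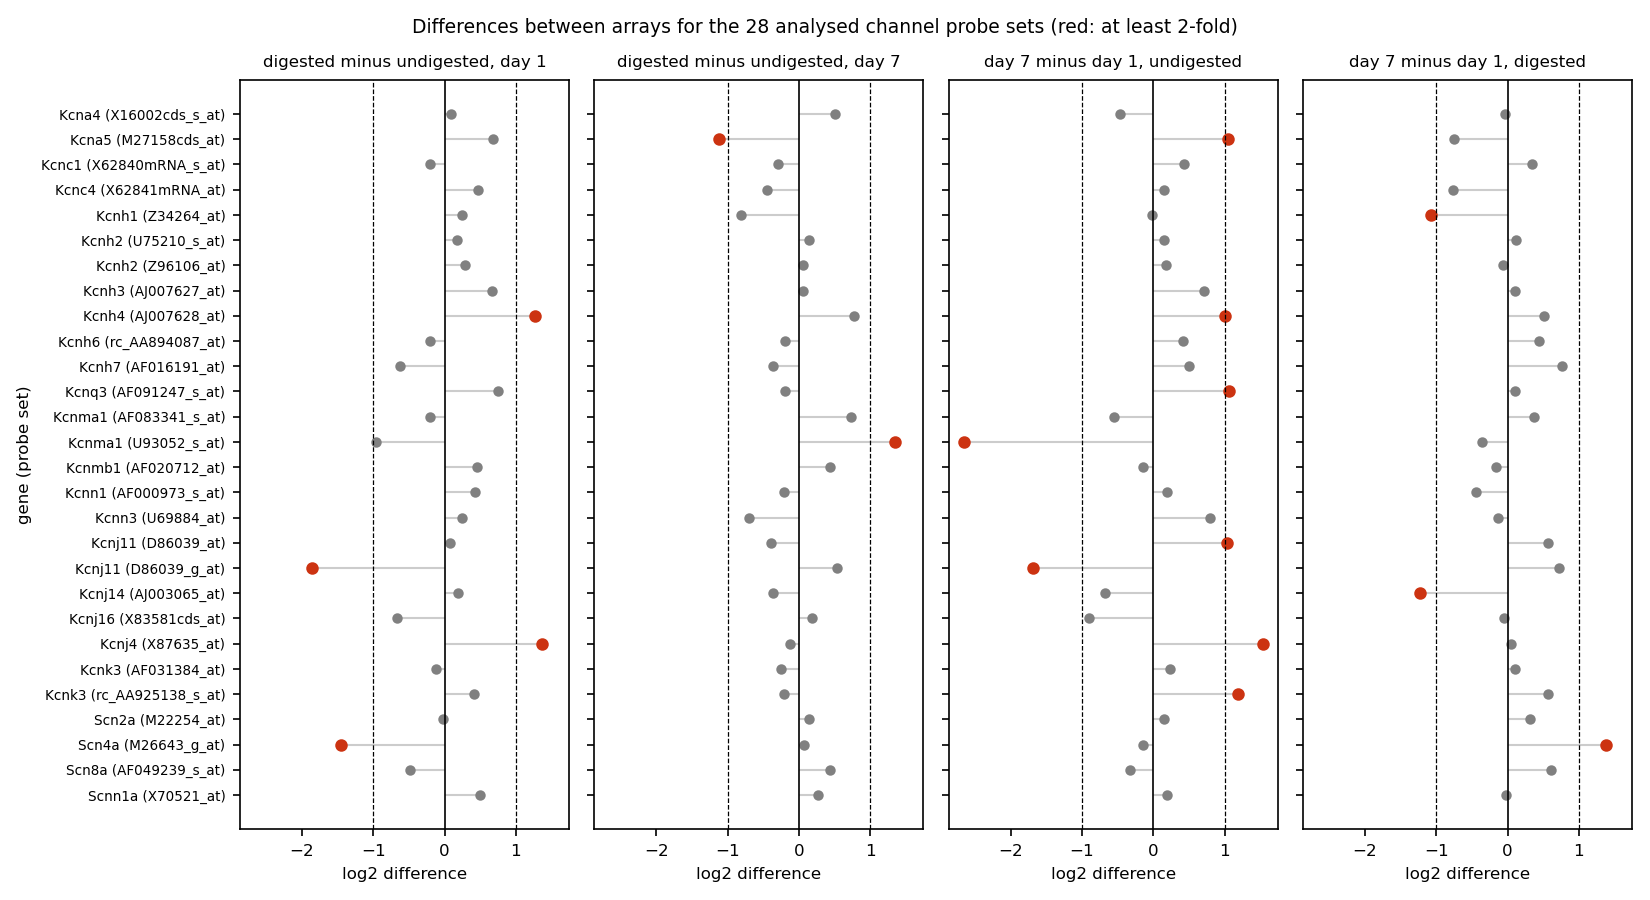
Log2 differences between arrays for the 28 analysed channel probe sets, 1 panel per comparison, ordered by channel class, with dashed lines at 2-fold and red points at or past it. Red points number 4, 2, 8 and 3 from left to right, and no probe set is red in both digestion panels or in both day panels.

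Fitted to all 4 arrays with terms for digestion and day (limma, 1 residual degree of freedom, Benjamini-Hochberg over the 632 probe sets), none of the 28 channel probe sets had an adjusted p under 0.05 for either term. For digestion 1 channel had an unadjusted p under 0.05, Kcnh4, with a log2 difference of 1.01 ± 0.32 (SE) and a limma adjusted p of 0.677. Over all probe sets 6.65% had such an unadjusted p and 0% such an adjusted p. For the day 5 channels (17.9%) had an unadjusted p under 0.05, against 14.4% of all, and the adjusted p was under 0.05 for 0.158% of all. These were Kcnma1 (U93052_s_at, log2 -1.51 ± 0.49, limma adjusted p 0.248), Kcnj14 (-0.95 ± 0.32, 0.254), Kcnk3 (rc_AA925138_s_at, 0.88 ± 0.32, 0.317), Kcnj11 (D86039_at, 0.80 ± 0.32, 0.331) and Kcnh4 (0.76 ± 0.32, 0.342). On the other analysed probe set of Kcnma1, Kcnk3 and Kcnj11 the day term was -0.09, 0.17 and -0.49 (log2), and none of these is among the 5. With this design the error is the change of one difference across the other factor together with a spread pooled over probe sets, and it is not a spread between animals.

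How far the probe sets of a gene agreed could be read for the 25 channel genes that had several. All probe sets of a gene fell on the same side of 0 for 9 of the 25 for digestion at day 1 (36%, against 38.8% of the 276 genes with several probe sets on the array), 8 for digestion at day 7 (32% against 42.4%), 8 for the day undigested (32% against 41.3%) and 10 for the day digested (40% against 43.1%). The filter on dim probe sets was not applied here. A gene with a probe set at the floor on both arrays stayed among the 25 or the 276 but could not score as agreeing. Channel probe sets touched the floor more often (55.8%, against 34.9% of all), so these shares do not compare only genes that could be judged. Kcnd3 and Scn3a were the only channel genes with every probe set past 2-fold the same way between the undigested samples (8% of 25, against 2.54% of the 276). For the day digested only Scn4a did so (2.17% of the 276), and for digestion no channel gene did at day 1 (1.81%) or day 7 (1.45%). Kcnd3, an A-type channel of neurons and heart, read lower at day 7 by all 4 probe sets, from 301 to 99.3 with U92897_s_at, 237 to 81.4 with rc_AI230211_s_at, 374 to 84.2 with U42975_at and 167 to 31.4 with M74898cds_s_at, the last under the floor at day 7. In the digested samples its probe sets did not agree, with log2 day differences of -0.26, -2.14, 1.36 and -0.78 in the same order. Scn3a, an embryonic sodium channel of brain, went from 111 to 25.4 and from 209 to 31.5, under the floor at day 7 by both. None of these 6 probe sets had a mean signal at the filter of 229, and they were singled out after their values were seen. Kcnj11 and Kcnj3 had probe sets past 2-fold in opposite directions in that comparison (8% of 25, 5.07% of 276). So did Kcnc2, Kcnh8, Kcnma1 and Scn9a for digestion at day 7 (6.16% of 276), Kcnc2, Kcnd3 and Scn9a for the day digested (4.35%), and no channel gene for digestion at day 1 (3.99%).

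**Figure D4:**
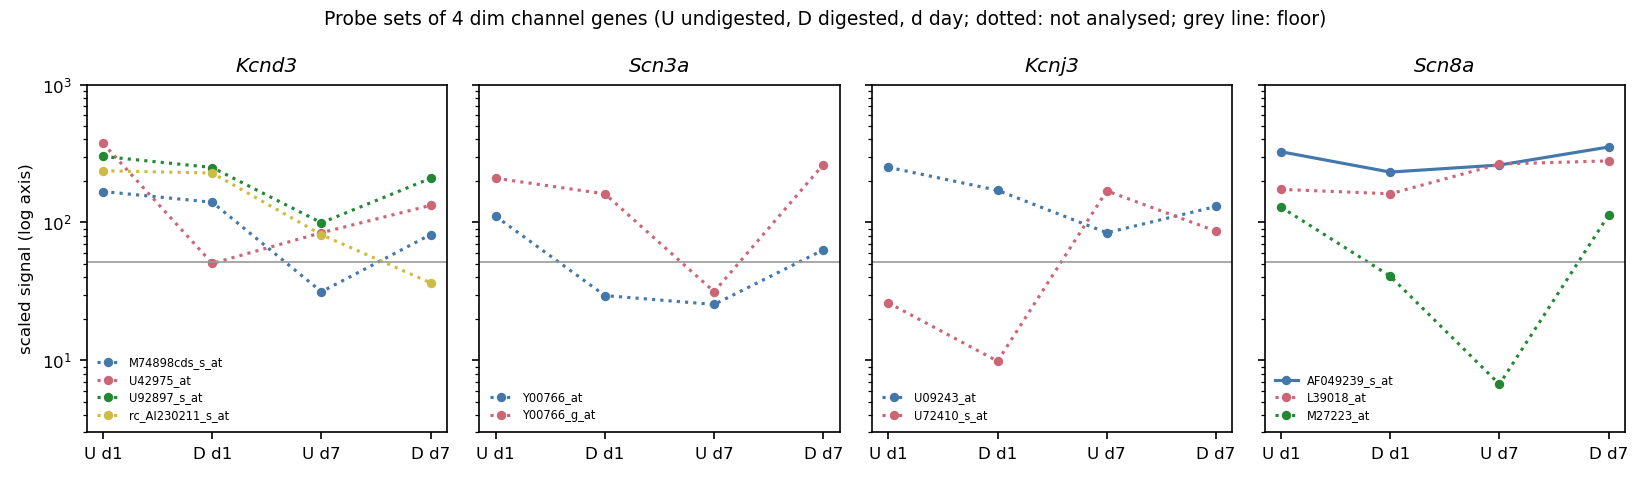
Scaled signal (log axis) on the 4 arrays for the probe sets of Kcnd3, Scn3a, Kcnj3 and Scn8a, dotted where not analysed, with the floor of 51.8 as a grey line. All 4 probe sets of Kcnd3 and both of Scn3a are lower on the undigested day 7 than on the undigested day 1 array, while those of Kcnj3 and of Scn8a do not move together between these arrays. In each of the other comparisons all probe sets of Scn8a fall on the same side of 0.

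Other genes that set the membrane potential, from a list of pumps, exchangers, chloride and acid-sensing channels and channel partners, gave few differences. Of 38 listed genes 14 were on the array, with 21 probe sets, of which 10 were analysed and 6 well above the median. Past 2-fold were 1 of 10 for digestion at day 1, the acid-sensing channel gene Asic1 (log2 -1.18), 1 for digestion at day 7, the chloride transporter gene Clcn4 (-1.10), and 0 for either day comparison. The same comparisons had 3.48%, 11.4%, 13.3% and 8.07% of all analysed probe sets past 2-fold. Atp1b1, a subunit of the sodium pump, which restores the gradients the channels use, read 88651, 100256, 134795 and 82307 with its brighter probe set. Abcc9, a regulatory subunit that pairs with the channel of Kcnj11, read 434, 664, 504 and 585.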

How the data were processed

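The authors deposited 1 linear intensity for each of 1322 probe sets (59 of them controls) on each of the 4 arrays. Their way of computing and scaling it is not stated in the sources used here. Of the other 1263 probe sets 1137 had 1 gene symbol (720 genes) in the probe table, 8 had several and 118 none. All 95 channel probe sets matched RefSeq genes by identifier, and 0 symbols changed.

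Arrays were brought to the same median (factors 0.925, 1.01, 1.09 and 0.984, in the order undigested and digested day 1, undigested and digested day 7), floored at the 20th percentile and log2-transformed. The filter kept probe sets whose mean log2 value reached the overall median, and a log2 difference of at least 1 either way was counted. Detection calls were not used, and the number of arrays, 1 per group, limits the precision. Members given in full were those at least 2 times the array median on all arrays or, if analysed, past 2-fold in a comparison with neither value at the floor. The members and lists were chosen with earlier results of these data known, and the other scalings of the ion transport list were added after seeing the data. Alternatives were other scalings, floors, filters and thresholds, and the additive fit with limma 3.58.1 in R 4.3.3. Other steps used Python 3.11.15, numpy 2.4.6, pandas 2.3.3 and matplotlib 3.10.9. On simulated arrays 100 probe sets were shifted at each fold, all of them upward in the digested samples. The day 1 digestion comparison over 632 probe sets recovered 29 at 2-fold and 95 at 4-fold. It counted 6 of 432 unshifted ones as higher and 22 as lower, and the limma fit gave 8 of them an adjusted p under 0.05. After scaling, the median log2 difference was -0.17 for the unshifted and 0.73 for the 2-fold ones. These counts hold for that one-sided setting only.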

Additional observations from a re-analysis of the deposited data

Results flagged for a closer look

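The digestion difference of 3 analysed channel probe sets changed sign between the days, with at least 0.5 (log2) on each side, and for 2 of them the day difference also changed sign between the states. Such changes were looked for only among the 18 members given in full, which were chosen by their level or by a 2-fold difference. The share of all analysed probe sets with such a change was not counted, so the 3 have no background. With 1 array per group this was not tested. For Kcna5 the digestion difference was 0.67 at day 1 and -1.12 at day 7 (log2), a change of -1.80. The same change of -1.80 separates its day differences, 1.05 undigested and -0.75 digested, because both use the same 4 arrays. For Kcnj11 by D86039_g_at the digestion difference was -1.86 at day 1 and 0.54 at day 7, and the day difference -1.69 undigested and 0.71 digested, a change of 2.40. Its other probe set, D86039_at, gave 0.08 and -0.40 for digestion. For Kcnma1 by U93052_s_at the digestion difference was -0.96 at day 1 and 1.34 at day 7, a change of 2.30, and the other analysed probe set of that gene gave -0.20 and 0.73. The dim U55995_at of Kcnma1 did not change sign, with -0.63 at day 1 and -2.19 at day 7, the latter with the digested value at the floor.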

How the results depend on the processing

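Among the comparisons of channel probe sets, the count past 2-fold for digestion at day 1 was 4, and 27 without the filter, 0 in the 316 brighter analysed probe sets (which hold 2 channels), 10 at 1.5-fold and 1 at 3-fold. For digestion at day 7 it was 2, and 1 in the values as deposited, with the floor at the 40th percentile and with an offset, 29 without the filter, 0 in the brighter ones, 6 at 1.5-fold and 0 at 3-fold. For the day undigested it was 8, and 4 in the values as deposited, after cyclic loess and with an offset, 37 without the filter, 0 in the brighter ones, 12 at 1.5-fold and 2 at 3-fold. For the day digested it was 3, and 27 without the filter, 0 in the brighter ones, 8 at 1.5-fold and 0 at 3-fold. Without the filter 16.5%, 21.6%, 22.5% and 19.2% of all 1263 probe sets passed in the same comparisons, a background not matched for the dimness of the channels. Of the 316 brighter analysed probe sets 0%, 3.8%, 9.49% and 3.48% passed, so a count of 0 among 2 channels says little. Of all 632 analysed probe sets 11.6%, 27.8%, 37.2% and 23.7% passed at 1.5-fold, and 1.27%, 3.96%, 3.16% and 2.85% at 3-fold. For digestion at day 7 the share of all was 11.6% as deposited, 10.6% with the higher floor and 10.1% with an offset. For the day undigested it was 12.5% as deposited, 12.2% after cyclic loess and 11.1% with an offset. The count well above the median was 8, and 4 at 3 times the median, where 34% and 29.8% of all 1263 probe sets were. Of the other ion transport genes 1 passed for digestion at day 7, and 0 in the values as deposited. The additive limma fit gave 0 channels at an adjusted p under 0.05 in all settings run. With the filter, 1 of 28 channels had an unadjusted p under 0.05 for digestion in each setting, and 3 to 6 for the day. Without it, 7 of 95 had one for either term. In the main setting 6.65% (digestion) and 14.4% (day) of all analysed probe sets had such a p, and the other settings were not counted. Its lowest adjusted p over the channels ran from 0.287 to 0.973 for digestion and from 0.0533 to 0.447 for the day. No difference past 2-fold changed sign under another scaling or an offset. The cause of these moves was not tested. The additive fit, with digestion and day as terms, is the one that pairs the states within a day and the days within a state. Signals near the floor of 51.8 limit most dim members.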
